A study of Homo sapiens with 4 samples.

Results

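Annexins are calcium-dependent phospholipid-binding proteins, and the 10 annexin genes described here (ANXA1, ANXA2, ANXA3, ANXA4, ANXA5, ANXA6, ANXA7, ANXA9, ANXA11 and ANXA13) were followed through ribosome footprints of 2 human cell lines. They were taken from the junction tables by Ensembl gene identifier. They account for 10 of the 35224 genes with junctions of their own and for 232 of 350863 annotated splice junctions, of which 158 carried a uniquely mapped read in either line. All 10 genes passed the minimum of 20 reads over both tables, which 10956 genes met. The genes were selected on the ratio of their K562 to HepG2 junction reads, so every such ratio below is a description, without a test, and supports nothing.

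K562, an established line grown from a chronic myelogenous leukemia, has erythroid features, and HepG2, an established line grown from a liver tumor, has hepatocyte features. The labels name no treatment, genetic change or time for either line, only cycloheximide in the lysis buffer of both, which halts ribosomes in place. The labels give 2 samples of K562 and 2 of HepG2, pooled by the submitters to 1 junction table per line, so no standard deviation and no replicate check exists for any value. All intervals are exact 95% binomial intervals and cover the error of counting alone, and reads not counted by molecular identifiers are not independent molecules. Only footprints that span a splice junction are counted, and in such bulk samples fewer cells with a message and fewer footprints per cell cannot be told apart.

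Each annexin pairs a variable amino-terminal tail with a conserved core of repeats that grips the membrane through bound calcium ions. The tail sets the partners, many of them small EF-hand calcium sensors of the S100 and penta-EF-hand families, and the core binds acidic lipids such as phosphatidylserine. Family members are known from membrane repair, vesicle traffic, plasminogen activation at the cell surface, resolution of inflammation and anticoagulant shielding of exposed phosphatidylserine.

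The shared core can be read from the exons themselves. A run of coding exons of 95, 114, 91 and 80 bases occurred 9 times in 8 of the 10 genes, with both cores of ANXA6 among them, and was absent from ANXA7 and ANXA13. The 8 junctions from the first of these exons onward are called core junctions here and numbered in the direction of translation. Core junction 8 is shown for 5 genes that lead in one line or the other or are described at length below. There the same place in the protein is read by different letters in each paralog, and a uniquely mapped footprint is assigned to 1 gene. The letters are the last 15 bases of one exon in lower case and the first 15 bases of the next in capitals, from GENCODE 29 transcripts on GRCh38, and the coordinates are those of the intron between them.
ANXA1 core junction 8 (chr9:73167556-73169031, plus strand): catcaagccatgaaaGGTGTTGGAACTCGC
ANXA2 core junction 8 (chr15:60349198-60351192, minus strand): tatgactccatgaagGGCAAGGGGACGCGA
ANXA4 core junction 8 (chr2:69819339-69820698, plus strand): tataaatcgatgaagGGCTTGGGCACCGAT
ANXA5 core junction 8 (chr4:121669725-121669953, minus strand): tattatgctatgaagGGAGCTGGGACAGAT
ANXA11 core junction 8 (chr10:80157764-80157966, minus strand): aacaaggccatgaggGGGGCAGGAACAAAG
At this junction ANXA1 had 2384 unique reads in K562 against 0 in HepG2, and ANXA2 had 721 in K562 against 38 in HepG2. ANXA4 had 35 in K562 against 327 in HepG2, and ANXA5 had 209 in K562 against 671 in HepG2. ANXA11 had 112 in K562 against 59 in HepG2. Not all mapped reads at this junction were unique, with 209 of 277 unique for ANXA5 in K562 and 671 of 809 in HepG2. For ANXA2, 721 of 792 were unique in K562 and 38 of 46 in HepG2. At this position of the shared core ANXA1 and ANXA2 had the most reads of the 5 in K562, and ANXA5 and ANXA4 in HepG2.

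Levels of different genes were set side by side as unique reads per coding junction of the most-read coding transcript, per 1000000 reads of effective depth (TMM scale), written below as scaled reads per junction. On this scale the 10 genes summed to 280 in K562 and 229 in HepG2. ANXA1 made up 52.4% of that sum in K562 and 0.0335% in HepG2. ANXA5 made up 13.4% in K562 and 58.9% in HepG2, and ANXA4 made up 1.83% in K562 and 19.5% in HepG2. ANXA1 was thus the leading annexin in K562 and ANXA5 in HepG2.

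**Figure D1:**
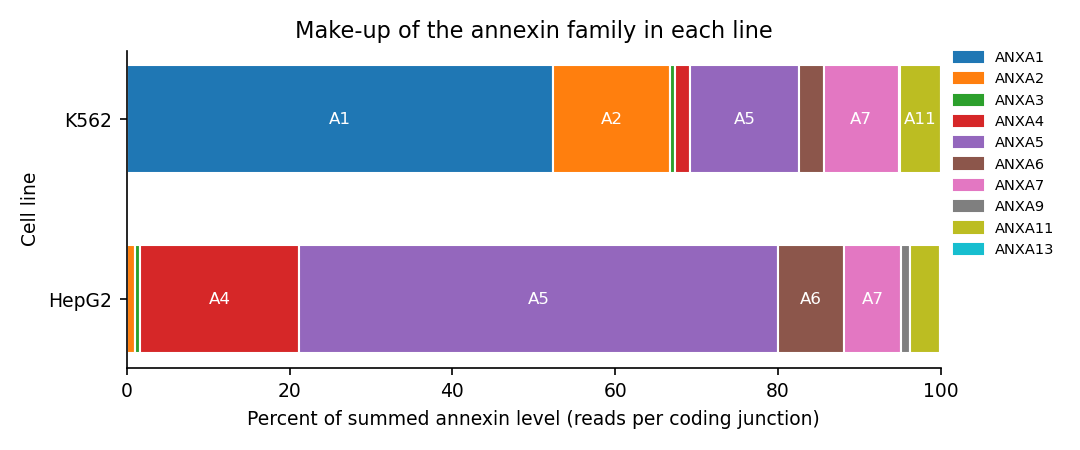
Percent of the summed annexin level (scaled reads per coding junction) held by each gene, with K562 above HepG2 and one color per gene. ANXA1 fills 52.4% of the K562 bar and ANXA5 fills 58.9% of the HepG2 bar.

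Counted as plain reads, the 10 genes held 28527 of 7222089 single-gene reads in K562, or 0.395% (0.390 to 0.400), and 23629 of 9607307 in HepG2, or 0.246% (0.243 to 0.249). Without the 100 most-read genes of each table the shares were 0.254% in K562 and 0.173% in HepG2. ANXA1 in K562 and ANXA5 in HepG2 were themselves among those 100 genes.

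In K562 the order of levels was ANXA1 at 147 (144 to 149), ANXA2 at 40.3 (39.1 to 41.6), ANXA5 at 37.5 (36.3 to 38.8), ANXA7 at 25.8 (24.7 to 26.8) and ANXA11 at 14.1 (13.4 to 14.8) scaled reads per junction. Below them stood ANXA6 at 8.43, ANXA4 at 5.11, ANXA3 at 1.69 and ANXA9 at 0.294, and ANXA13 had no read. No neighbours in this order had overlapping counting intervals, and for ANXA13, at 0, a floor of 3 counts is a level of 0.036 and the exact interval reaches 0.0442. With the median over coding junctions in place of the mean, ANXA2 stood at 1.44 and ANXA5 at 36.0 in K562, so the order of these genes depends on that choice.

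In HepG2 the order was ANXA5 at 135 (133 to 137), ANXA4 at 44.6 (43.2 to 46.0), ANXA6 at 18.5 (17.9 to 19.1), ANXA7 at 16.1 (15.3 to 17.0) and ANXA11 at 8.31 (7.78 to 8.88) scaled reads per junction. ANXA9 at 2.51 (2.19 to 2.86) and ANXA2 at 2.26 (1.97 to 2.57) had overlapping intervals. ANXA3 followed at 1.39 (1.16 to 1.66). ANXA13 at 0.229 (0.138 to 0.358) and ANXA1 at 0.0767 (0.0308 to 0.158) overlapped at the bottom of the order. Among 17371 genes with a level, ANXA1 ranked 101 in K562 against 10424 in HepG2, ANXA5 ranked 599 in K562 against 143 in HepG2, and ANXA4 ranked 3489 in K562 against 578 in HepG2.

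**Figure D2:**
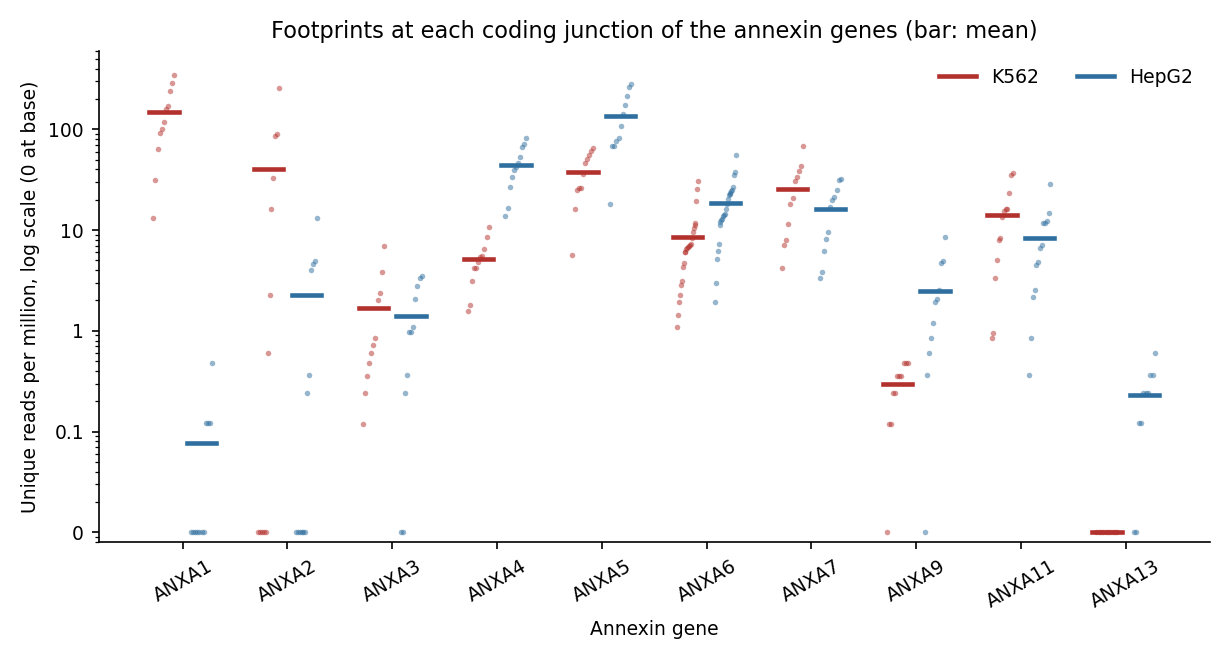
Scaled unique reads at each coding junction (points) and their mean (bars) for each annexin gene on a log axis, K562 left of HepG2 within a gene, with values of 0 drawn at the base. Means run to 147 for ANXA1 in K562 and to 135 for ANXA5 in HepG2, and the points of a single gene spread over more than the distance between many neighbouring means.

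A difference was called where the entire interval of the ratio exceeded 2-fold in one direction. By that rule 2 of the 10 genes were higher in K562, beside 16.8% of all 10956 genes, and 4 of 10 were higher in HepG2, beside 21.9% of all genes. Nothing is read from these shares, since this contrast chose the genes. The median log2 ratio of all genes was -0.01. On each member's own chromosome the median log2 ratio of all genes lay between -0.43 (chromosome 2, 744 genes) and 0.45 (chromosome 1, 1126 genes), and for chromosome 9, which holds ANXA1, it was -0.01 over 430 genes.

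**Figure D3:**
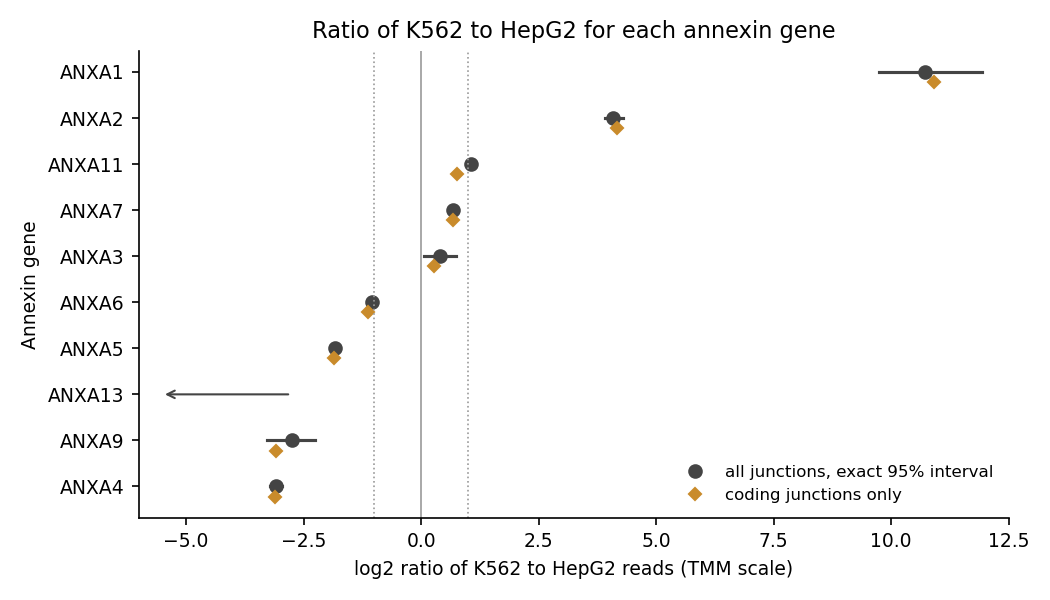
Log2 ratio of K562 to HepG2 reads for each annexin gene (circles, with exact 95% intervals) and the same from coding junctions alone (diamonds); dotted lines mark 2-fold. ANXA1 at 10.72 and ANXA2 at 4.09 lie past 2-fold toward K562, and ANXA4, ANXA9, ANXA13 and ANXA5 lie past it toward HepG2; the arrow for ANXA13 starts at the ratio that 3 counts in K562 would give, as K562 had 0.

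ANXA1 (ENSG00000135046, chr9:73151757-73170393, plus strand), a glucocorticoid-regulated annexin whose amino-terminal peptide activates formyl peptide receptors, had 13546 unique reads in K562 against 8 in HepG2. The K562-to-HepG2 ratio came to 1685 (855 to 3905), the 13th highest of all genes. All 11 coding junctions had more reads in K562, from 110 at the lowest to 2857 at the highest, against 0 to 4 in HepG2. The nearest genes in the plane of both levels, over 10415 genes compared, were GTSF1 at a log2 distance of 0.083 and LDHB, a lactate dehydrogenase subunit, at 0.155.

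ANXA2 (ENSG00000182718, chr15:60347134-60402883, minus strand), which forms a tetramer with S100A10 and binds plasminogen and tissue plasminogen activator at the cell surface, had 4197 unique reads in K562 against 245 in HepG2. The K562-to-HepG2 ratio was 17.05 (14.99 to 19.48). All 6 of its coding junctions with 10 or more reads were past 2-fold toward K562. Unique mapping removed a larger part of its reads than of any other member's: 69.3% of its mapped reads were unique in K562 and 55.2% in HepG2, against 91.7% or more in K562 and 95.4% or more in HepG2 for ANXA1, ANXA4, ANXA5, ANXA6, ANXA7, ANXA9 and ANXA11.

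The human genome holds processed ANXA2 copies, the pseudogenes ANXA2P1, ANXA2P2 and ANXA2P3. Windows of 30 bases centered on each coding junction were looked up in all GENCODE 29 transcripts of other genes. An exact copy was found for 6 of the 12 ANXA2 windows, all of them in these pseudogenes, and for 0 of the windows of the other 9 members. The pair below shows one window with an exact copy and one without, again with the second exon in capitals.
ANXA2 core junction 3 (chr15:60355999-60357145, minus strand): gagtctacaaggaaaTGTACAAGACTGATC
ANXA2 core junction 5 (chr15:60352477-60354153, minus strand): gaccaagatgctcggGATCTCTATGACGCT
The window of core junction 3 occurs unchanged in ANXA2P1 and ANXA2P2. It had 226 mapped reads in K562 against 14 in HepG2, and 0 unique reads in both lines. The window of core junction 5 differs from its closest pseudogene at 1 base, and 2128 of 2132 mapped reads in K562 and 108 of 108 in HepG2 were unique.

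The split held along the gene. Among the 6 junctions with an exact copy, 1 had any unique read, core junction 1, with 19 of 633 mapped reads in K562 and 2 of 48 in HepG2. Another of them, coding junction 3 (chr15:60364524-60382341), had 0 reads in both lines with all mapped reads too. Why it had none was not tested. Averaged over the 6 junctions without an exact copy, the ANXA2 level was 80.2 scaled reads per junction in K562 and 4.48 in HepG2. Over all 12 it was 40.3 in K562 and 2.26 in HepG2. Both averages include coding junction 1 (chr15:60386087-60397870), which belongs to 1 annotated transcript. It had 5 unique reads in K562 against 0 in HepG2 and so lowers both averages. Over the 6 junctions without an exact copy, ANXA2 made up 25.1% of the annexin sum in K562 and 1.94% in HepG2. Its level then stood further above that of ANXA5 in K562 and above that of ANXA9 in HepG2. With all mapped reads ANXA2 made up 19.3% in K562 and 1.75% in HepG2. With the median over its 12 junctions, most of which had few or no unique reads, its level was 1.44 in K562 and 0.121 in HepG2, and 0.714% of the annexin sum in K562.

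**Figure D4:**
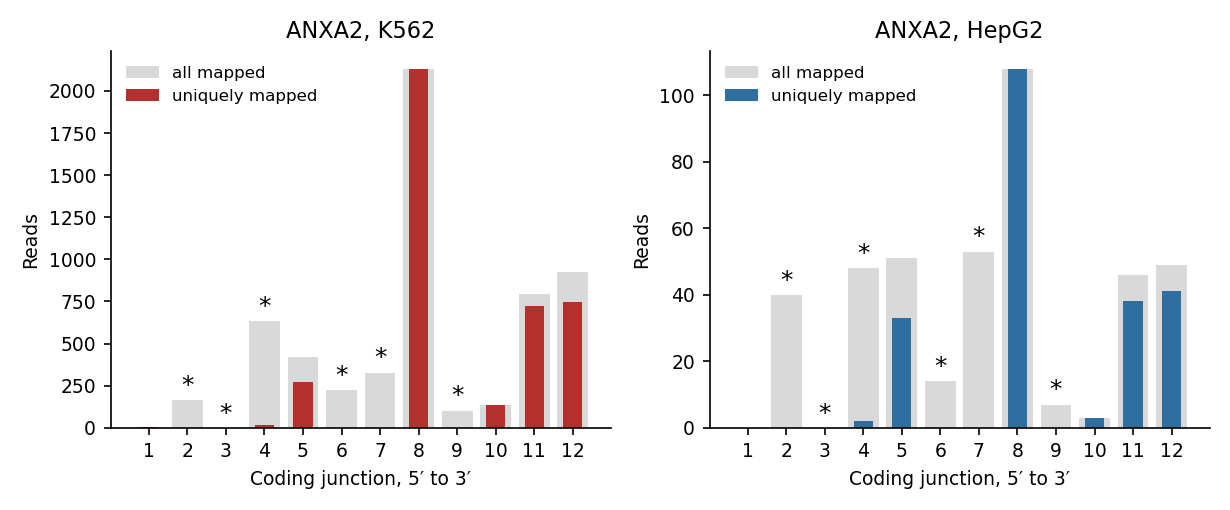
Reads at each of the 12 coding junctions of ANXA2, all mapped (grey) and uniquely mapped (color), K562 left and HepG2 right on separate axes; an asterisk marks a junction whose 30-base window occurs unchanged in a pseudogene. Junction 8 (core junction 5) has 2128 unique reads in K562 against 108 in HepG2, while the 6 marked junctions have few or none.

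The 5′ end of ANXA2 also differed. The splice acceptor 11 bases before the start codon (position 60386087 of chromosome 15) is joined to several alternative upstream exons. The intron chr15:60386087-60397257 took 110 of 120 unique reads at this acceptor in K562, or 91.7% (85.2 to 95.9), and 0 of 18 in HepG2 (0 to 18.5). The intron chr15:60386087-60402768 took 0 of 120 in K562 (0 to 3.03%), against 18 of 18 in HepG2, or 100% (from 81.5). Nearly all unique reads at this acceptor thus came from one upstream exon in K562 and all from another in HepG2, in front of the same start codon. Footprints that also map elsewhere are not among them. The intron chr15:60386087-60397942 had 0 unique and 2 mapped reads in each line. Pseudogene copies were looked up for coding junctions only, so how many footprints of other upstream exons are missing here is not known.

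That acceptor fell under the minimum of 20 reads per line, at which 24 junctions of 6 annexin genes were compared and 0 passed the share rule (shares 20 points apart, intervals apart), beside 4.71% of 20029 junctions of all genes. With a minimum of 10 reads, the 2 ANXA2 introns just given passed, of 32 annexin junctions compared, beside 4.45% of 26334. With all mapped reads at the original minimum the same 2 introns passed, of 42 compared, beside 4.43% of 24244. They then took 111 of 129 reads in K562 against 0 of 22 in HepG2, and 0 of 129 in K562 against 19 of 22 in HepG2.

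ANXA5 (ENSG00000164111, chr4:121667955-121697113, minus strand), the phosphatidylserine binder used as a probe of dying cells, had 3478 reads in K562 against 12342 in HepG2. The HepG2-to-K562 ratio came to 3.57 (3.43 to 3.70), and all 11 coding junctions had a higher scaled count in HepG2, 10 of them past 2-fold. ANXA5 was abundant in both lines, with 47 to 543 reads per coding junction in K562 and 150 to 2316 in HepG2. Its nearest genes by level were RPN2, a subunit of the oligosaccharyltransferase of the endoplasmic reticulum, at a log2 distance of 0.04, and PHPT1 at 0.166.

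A skipped exon of ANXA5 was read in K562. The 2 junctions below share their second exon, in capitals, and the skipping form leaves out the 95-base exon that opens the core.
ANXA5 skipping junction (chr4:121683478-121686287, minus strand): ctatgaaaggcttggGATCTTCTGGATGAC
ANXA5 inclusion junction (chr4:121683478-121684676, minus strand): actctgtttggcaggGATCTTCTGGATGAC
The skipping junction took 12 of 147 reads at the shared acceptor in K562, or 8.16% (4.29 to 13.8), and 0 of 630 in HepG2 (0 to 0.584%). At the donor it took 12 of 555 in K562, or 2.16% (1.12 to 3.75), and 0 of 2163 in HepG2 (0 to 0.170%). The intervals do not overlap at either site, while the differences of 8.16 and 2.16 points are under the 20 points of the rule.

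ANXA4 (ENSG00000196975, chr2:69644425-69827100, plus strand), an annexin of secretory epithelia that aggregates membranes, had 498 reads in K562 against 4221 in HepG2. The HepG2-to-K562 ratio came to 8.52 (7.76 to 9.36), with all 11 coding junctions past 2-fold, and junction log2 ratios of K562 to HepG2 lay between -3.65 and -2.29. Those of ANXA5 spanned more, from -2.72 to -0.93, and those of ANXA6 from -2.79 to -0.06. NPC2, a lysosomal cholesterol carrier, and NHERF1, a scaffold under the apical membrane, were the nearest genes by level, at log2 distances of 0.057 and 0.074.

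ANXA9 (ENSG00000143412, chr1:150982017-150995634, plus strand), whose core has lost its calcium-binding residues, had 37 reads in K562 against 248 in HepG2. The HepG2-to-K562 ratio came to 6.73 (4.75 to 9.79), and 8.52 (5.71 to 13.2) from coding junctions alone, since 10 of the 37 reads in K562 lay upstream of the start codon, against 19 of 248 in HepG2. All 7 coding junctions with 10 or more reads were past 2-fold toward HepG2. ANXA13 (ENSG00000104537, chromosome 8, 123680794 to 123737407, minus strand), a myristoylated annexin of the intestine, had 0 reads in K562 against 20 in HepG2, which makes it at least 6.70-fold lower in K562 against a floor of 3 counts. The exact interval, which also holds the counting error of HepG2, reaches down to 4.96-fold. With 19 coding reads over 10 junctions in HepG2, it stands at the edge of what this depth shows.

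ANXA6 (ENSG00000197043, chr5:151100712-151157882, minus strand), the member with a duplicated core, had 1842 reads in K562 against 3788 in HepG2. The HepG2-to-K562 ratio came to 2.07 (1.95 to 2.19), so that the interval crossed 2-fold and the gene was not counted. All 24 coding junctions had a higher scaled count in HepG2, 14 of them past 2-fold. From coding junctions alone, an alternative that was chosen once the data had been seen, the ratio was 2.19 (2.07 to 2.32) and passed.

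Upstream of the ANXA6 start codon the order of the lines was the other way. The junction 25 bases before the start codon (chr5:151147927-151157679) had 154 reads in K562 against 90 in HepG2. Reads upstream of the start codon were 8.36% (7.14 to 9.72) of ANXA6 reads in K562 and 2.38% (1.91 to 2.91) in HepG2. ANXA6 was therefore lower in K562 over its coding sequence and higher in K562 just before it, in the same tables.

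The second core of ANXA6 contains an alternative exon of 18 bases. The form with it is shown with the exon in capitals, and the form without it with the following exon in capitals.
ANXA6 with the 18-base exon (chr5:151110627-151110644, minus strand): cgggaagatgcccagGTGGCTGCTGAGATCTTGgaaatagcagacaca
ANXA6 without it (chr5:151109847-151117126, minus strand): cgggaagatgcccagGAAATAGCAGACACA
The form without the exon took 2 of 95 reads at the acceptor in K562, or 2.11% (0.256 to 7.40), and 19 of 203 in HepG2, or 9.36% (5.73 to 14.2). These intervals overlap. At the donor the form without the exon took 2 of 18 in K562 and 19 of 79 in HepG2, so most footprints in both lines came from the form with the exon.

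ANXA7 (ENSG00000138279, chr10:73375101-73414076, minus strand), also known as synexin, which fuses vesicle membranes and binds the penta-EF-hand protein sorcin, had 2386 reads in K562 against 1486 in HepG2. The K562-to-HepG2 ratio came to 1.598 (1.497 to 1.706), all 11 coding junctions had a higher scaled count in K562, and 3 were past 2-fold. Among ANXA5, ANXA6, ANXA7 and ANXA11, it had the ratio closest to 1, and it held 9.21% of the annexin sum in K562 and 7.05% in HepG2. With scaling by total reads its log2 ratio was 1.10 instead of 0.68, and it was then counted as higher in K562.

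ANXA11 (ENSG00000122359, chr10:80150889-80205572, minus strand), a long-tailed annexin that binds the calcium sensor PDCD6 and tethers RNA granules to lysosomes, had 2374 reads in K562 against 1144 in HepG2. The K562-to-HepG2 ratio came to 2.07 (1.92 to 2.22), which the rule did not count, and from coding junctions alone it was 1.69 (1.56 to 1.84). A log2 ratio of 1.47 with scaling by total reads passed the rule. All 13 coding junctions were on the K562 side, 4 of them past 2-fold.

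ANXA11 had the largest part of its reads at junctions upstream of the start codon of all members in both lines. Junctions upstream of the start codon held 844 of 2374 reads in K562, or 35.6% (33.6 to 37.5), and 247 of 1144 in HepG2, or 21.6% (19.2 to 24.1). The next shares were those of ANXA9 in K562, at 27.0% (13.8 to 44.1) of 37 reads, whose interval overlaps that of ANXA11, and of ANXA1 in HepG2, at 1 of 8 reads. ANXA2, ANXA3, ANXA4, ANXA5, ANXA6 and ANXA7 had at most 8.36% in K562 and at most 8.16% in HepG2. A single junction, chr10:80172870-80176106, 8 bases before the start codon, had 792 reads in K562 against 242 in HepG2. The ANXA1 junction 14 bases before its start codon had 97 of 13546 reads in K562, a far smaller part of the gene. These 2 junctions lie at unlike distances from the start codon. A footprint across a junction 8 bases before the start codon can also cover that codon. Ribosomes on the start codon and ribosomes upstream of it were therefore not told apart here. A second intron into the same acceptor, chr10:80172870-80205342, took 39 of 831 reads in K562, or 4.69% (3.36 to 6.36), and 0 of 242 in HepG2 (0 to 1.51%).

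ANXA3 (ENSG00000138772, chr4:78551519-78610451, plus strand), an annexin known from neutrophil granules, had 169 reads in K562 against 127 in HepG2, a K562-to-HepG2 ratio of 1.32 (1.05 to 1.68). Of its 7 coding junctions with 10 or more reads, 2 were higher in K562 and 5 in HepG2. All 14 reads upstream of its start codon were from K562. In the other 8 members with coding junctions of 10 or more reads, all such coding junctions of a member lay on one side.

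Along the core, the counts were far from even within a gene. In K562 the ANXA1 core junctions had 1329, 2857, 1986, 977, 769, 261, 110 and 2384 unique reads from the first to the eighth. In HepG2 the ANXA5 core junctions had 630, 1757, 2316, 150, 563, 1426, 1175 and 671. The fourth core junction was the lowest of ANXA5 in both lines, at 2.13% of core reads in K562 and 1.73% in HepG2, whereas the seventh was the lowest of ANXA1 in K562, at 1.03%. Over the 15 profiles with 50 or more core reads (a core in 1 line is a profile), core junction 1 had the highest median share of core reads, at 16.3%. The lowest median was that of core junction 6, at 3.60%. Both ANXA2 profiles are included, with 0 unique reads at core junctions 3, 4 and 6, whose windows have exact pseudogene copies. The 3.60% of core junction 6, and its place as the lowest, therefore depend on including ANXA2. No other member has such copies, and medians without ANXA2 are not given here.

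The profile of a gene resembled itself in the other line. Across coding junctions, Spearman's rho between K562 and HepG2 counts was 0.97 for ANXA2 (12 junctions), 0.94 for ANXA7 (11), 0.92 for ANXA11 (13), 0.79 for ANXA4 (11), 0.77 for ANXA3 (11), 0.76 for ANXA6 (24) and 0.74 for ANXA5 (11). These are descriptions across junctions that share sequence, mappability and pooled table, and junctions are not replicates. The spread between junctions, such as 110 to 2857 reads in ANXA1 in K562, is not part of the counting interval of a level, which is therefore too narrow for setting genes side by side.

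Promoter sequence was described from RefSeq on GRCh38.p14, as 300 bases around the annotated start, most of them upstream of it. It was described for 9 of the 10 genes, and ANXA13 was left out. The ANXA1 promoter held 0 CpG dinucleotides and 37.7% G or C, whereas ANXA2, ANXA3, ANXA4, ANXA5, ANXA6 and ANXA7 held 23 to 36 CpG, ANXA11 held 12 and ANXA9 held 5, against a median of 14 CpG and 58.7% G or C over 35116 promoters. Searched on both strands, TATAAA (in 11.5% of all promoters) was present in ANXA1, ANXA2 and ANXA11. CCAAT (in 34.6%) occurred in ANXA1, ANXA6 and ANXA7, and GGGCGG (in 45.0% of promoters) in ANXA2, ANXA4, ANXA5, ANXA6 and ANXA7. Of these 9 genes, the GATA-type motif AGATAA (in 10.3%) was present in ANXA7 alone, and TGANTCA (in 7.71%) in ANXA2 alone. Such matches are letters in a window and say nothing about binding. The ANXA2 values describe the window chr15:60397937-60398236 only. The ANXA2 exon that HepG2 reads joined through chr15:60386087-60402768 lies further upstream, and no promoter was described there.

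The EF-hand partners of annexins split between the lines. Of 16 listed genes 12 had enough reads, and 4 were called toward K562, 4 toward HepG2 and 4 neither way. Of all 10956 genes 16.8% were called toward K562 and 21.9% toward HepG2, and these shares stand beside every list below. The median log2 ratio of the list was -0.17, beside -0.01 over all genes. S100A11, the partner of ANXA1, had 2230 reads in K562 against 46 in HepG2, and the ratio was 48.2 (36.0 to 66.1). SRI (sorcin), a partner of ANXA7, had 1089 reads in K562 against 2 in HepG2. PDCD6, a partner of ANXA11, had 1633 reads in K562 against 717 in HepG2, and the ratio was 2.27 (2.07 to 2.48), and S100A13 had 1609 in K562 against 503 in HepG2.

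S100A10, the partner of ANXA2, lay on the other side, with 28 reads in K562 against 632 in HepG2, a HepG2-to-K562 ratio of 22.7 (15.5 to 34.4). ANXA2 and S100A10 thus had opposite signs between the lines, while ANXA1 and S100A11 had the same sign. S100A6, which binds several annexins including ANXA11, had 0 reads in K562 against 809 in HepG2, which makes it at least 271-fold lower in K562 against the floor of 3 counts, with an exact interval that reaches down to 219.8-fold. S100P had 2 reads in K562 against 288 in HepG2, and GCA (grancalcin) had 278 in K562 against 1602 in HepG2. S100A4, S100A16 and PEF1 passed neither limit, nor did PDCD6IP, a PDCD6-binding protein without EF-hands that the list includes.

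**Figure D5:**
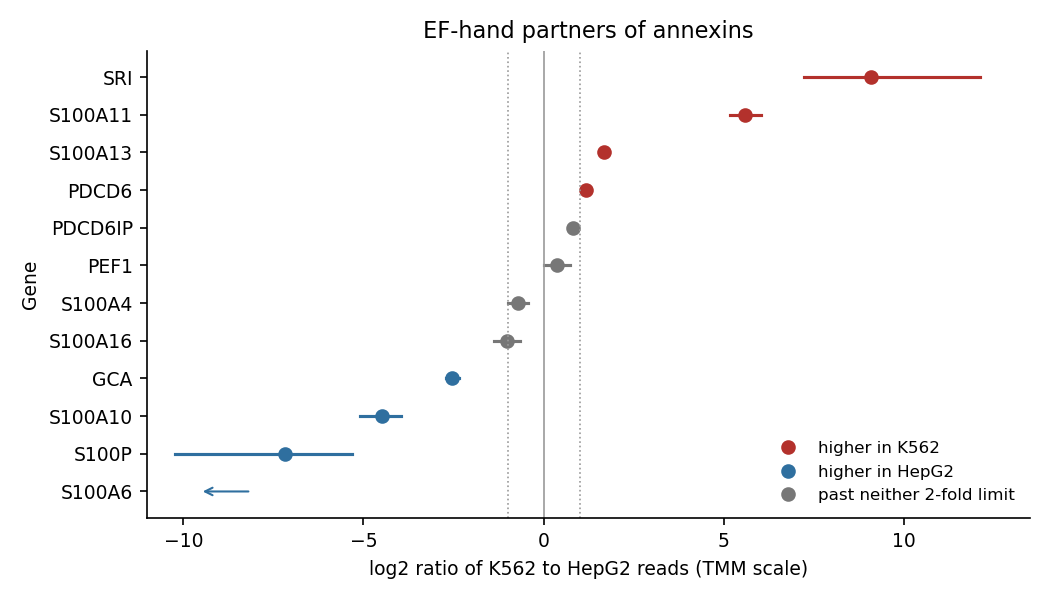
Log2 ratio of K562 to HepG2 reads with exact 95% intervals for the 12 measured genes of the EF-hand list, colored by the line in which they were counted as higher; dotted lines mark 2-fold. SRI, S100A11, S100A13 and PDCD6 lie toward K562, and S100A6 (an arrow from the ratio at 3 counts), S100P, S100A10 and GCA lie toward HepG2.

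Of 26 listed membrane repair and C2-domain genes, 20 were measured. Among them 10 were called toward K562, beside 16.8% of all genes, 3 toward HepG2, beside 21.9%, and 7 neither way. The median log2 ratio was 1.49, beside -0.01 over all genes. DYSF (dysferlin), which acts with annexins in sealing torn membranes, had 597 reads in K562 against 65 in HepG2. CAPN2, a calpain protease subunit, had 2526 in K562 against 160 in HepG2, and PRKCB, a protein kinase C that annexins bind, had 1425 in K562 against 0 in HepG2. CPNE1 (copine 1), a calcium-dependent lipid binder, had 731 reads in K562 against 7056 in HepG2, and the kinases PRKCA and PRKCD were also higher in HepG2.

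In the plasminogen list 9 of 11 genes were measured, with a median log2 ratio of -0.88. Among them 2 were called toward K562, beside 16.8% of all genes, 4 toward HepG2, beside 21.9%, and 3 neither way. PLAT, the tissue plasminogen activator that ANXA2 binds, had 148 reads in K562 against 0 in HepG2, and PLAUR, the urokinase receptor, had 73 in K562 against 13 in HepG2. PLG itself had 0 in K562 against 453 in HepG2, and its inhibitor SERPINF2 had 0 in K562 against 2863 in HepG2. LRP1, an endocytic receptor, was also higher in HepG2, and ENO1, a plasminogen receptor and glycolytic enzyme, had 24363 in K562 against 23864 in HepG2.

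Of 12 listed phosphatidylserine scramblases and flippases, which set how much of the ANXA5 ligand is exposed, 11 were measured. Among them 2 were called toward K562, beside 16.8% of all genes, 6 toward HepG2, beside 21.9%, and 3 neither way. The median log2 ratio was -1.85. ANO6, a calcium-activated scramblase, had 543 reads in K562 against 1962 in HepG2, and ATP11B, a flippase, had 717 in K562 against 280 in HepG2. The flippase subunit TMEM30A had 861 in K562 against 1689 in HepG2 and passed neither limit. Of 8 listed formyl peptide receptors and glucocorticoid response genes, 4 were measured, with a median log2 ratio of 0.61, and 1 was higher in K562, TSC22D3 with 95 reads in K562 against 8 in HepG2. FPR1, FPR2 and FPR3, receptors for the ANXA1 peptide, had 0 reads in both lines, but no coding junction was available for them, so their coding sequence was not measured. The annexins ANXA8, ANXA8L1 and ANXA10 had 0 reads in both lines, also with all mapped reads. Over the 5 partner lists 19 genes were called toward K562 and 17 toward HepG2, beside 16.8% and 21.9% of all genes. When the most-read junction of every gene was set aside, 12 were called toward K562 and 14 toward HepG2.

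The defining markers of the labelled lines were checked. Erythroid markers summed to 10120 reads in K562 against 17 in HepG2, with 5 of 6 higher in K562 and EPOR neither, and hepatocyte markers summed to 68 in K562 against 546848 in HepG2, with 6 of 6 higher in HepG2. Of other cell types, ITGA2B had 119 reads in K562 against 0 in HepG2 while the other 5 megakaryocyte markers had at most 1. Myeloid markers summed to 748 reads in K562 against 25682 in HepG2, all of the HepG2 reads from LYZ. Cholangiocyte markers summed to 2640 reads in K562 against 2773 in HepG2, fibroblast markers to 248 in K562 against 35 in HepG2, and endothelial markers to 5 in K562 against 53 in HepG2. Their part in the annexin values was not tested. The K562 table held 10118105 mapped reads, 74.0% of them unique, and that of HepG2 held 12001095, of which 82.7% were unique.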

How the data were processed

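Ribosome profiling libraries were made from K562 and HepG2 lysates with cycloheximide and depleted of ribosomal RNA with RiboZero, per the labels' protocols. cutadapt, Bowtie2, STAR 2.6.0 and GRCh38 are named in the submitters' processing notes without their roles; which annotation release and counting program were used is not given in the sources used here. Per the file headers, the deposited tables give raw counts for each annotated junction, of all mapped and of uniquely mapped reads, in 1 table per line that pools both samples. All value columns were assigned to a line (0 left unmapped).

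Gene counts are sums of unique reads, without the 6033 junctions that belong to several genes. Of all junctions, 99.8% matched GENCODE 29 introns. edgeR 4.0.16 TMM factors on R 4.3.3 set effective depth; ratios were given exact conditional binomial 95% intervals with scipy 1.17.1, and a count of 0 was set to 3 for the point value. Calculations on all genes were tested on simulated data. Tables were handled in pandas 2.3.3 and plots made with matplotlib 3.10.9. With all mapped reads a read may count at several places, so those intervals are too narrow.

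The annexin genes, the partner and marker lists, the alternatives and the naming rule were chosen with earlier results of these data known. The rule names all annexin members and permits, without requiring, the naming of list genes with enough reads, the 2 genes nearest to a member by level (log2 of level plus 0.1), and junctions past the share rule. Of the list genes counted, 1 is not reported here by name. As alternatives, the tables were scaled by total reads or with DESeq2 1.42.0 size factors, and the following were tried: all mapped reads, 99% intervals, gene minimums of 100 and 1 read, the most-read junction left out, other share limits, and levels as the median over coding junctions; coding junctions alone and junctions without pseudogene copies were added after seeing the data. Signal tracks were not used here.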

Additional observations from a re-analysis of the deposited data

Results flagged for a closer look

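A signal lay outside the unique reads on which the comparisons rest. At ANXA2 junctions with no unique read at all, 841 mapped reads were present in K562, over 10 junctions, and 118 in HepG2, over 7 junctions. These reads also map elsewhere, so whether they came from ANXA2 or from one of its pseudogenes cannot be told apart in these tables.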

How the results depend on the processing

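No paired analysis was possible because each table pools both samples of a line and its columns carry no replicate number; for the same reason no sample could be left out. Of 78 alternative log2 ratios of single members, 75 kept their direction and side of the 2-fold rule, and 3 kept direction but newly passed it. These were ANXA7 at 1.10 and ANXA11 at 1.47 with scaling by total reads, and ANXA6 at -1.13 with coding junctions alone. Scaling by total reads moved the median of all genes to 0.41 and gave 4 members higher in K562 instead of 2; relative to that shift ANXA7 and ANXA11 stood where they did before. It counted 2656 genes higher in K562 and 1925 higher in HepG2, with 58.0% of calls in K562 instead of 43.3%. The share of annexin reads was 0.319% in K562 and 0.214% in HepG2 with all mapped reads, 0.456% in K562 and 0.285% in HepG2 when each gene was counted without its most-read junction, and 0.254% in K562 and 0.173% in HepG2 without the 100 most-read genes. Annexin junctions past the share rule numbered 2 with all mapped reads and 2 with a minimum of 10 reads, instead of 0. Partner genes higher in K562 numbered 12 instead of 19 with the most-read junction left out, where fewer genes can be measured. Those higher in HepG2 numbered 14 instead of 17 there. No log2 ratio of a single member changed sign. With the median over coding junctions 14 of 20 member levels left their counting interval. ANXA2 was then at 1.44 in K562 and 0.121 in HepG2, and ANXA1 at 117 in K562 and 0 in HepG2. Over the alternatives the ANXA1 log2 ratio lay between 10.70 and 11.42 and that of ANXA4 between -3.12 and -2.67.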
